A study of Rattus norvegicus with 6 samples.

Results

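The Ensembl rat lncRNAs are the probes of this lncRNA array that are annotated to an Ensembl rat transcript and not to a match with a mouse transcript. Whether Ensembl lists each of these transcripts as noncoding was not checked. Probes were chosen by the annotation printed beside each value, which names an Ensembl rat transcript. Of 6716 probes with values, 1683 met this rule. The study drew a table of lncRNAs from those it had found changed in these samples, and 11 of the 1683 probes are in that table. These 11 were left out, which leaves 1672 Ensembl lncRNAs. All 11 lay higher in every denervated sample than in any normal one. Since the study picked them among lncRNAs changed in these samples, they are not independent evidence of a direction, and leaving them out lowers the counts of higher lncRNAs below.

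Long noncoding RNAs are transcripts without a long open reading frame, and the study also gives a minimum length for them. No limit on length was applied here. Some act in the nucleus, where they recruit or hold chromatin proteins at genes, and others act in the cytoplasm, where they bind mRNAs, microRNAs or proteins. Many are made at low levels and in few cell types, and the brain expresses a large variety of them. The fimbria-fornix (FF) is the fibre tract that brings the cholinergic input of the septum to the hippocampus, and cutting it removes that input from a region whose dentate gyrus goes on making neurons in adult rodents.

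The series compared hippocampal tissue of adult Sprague-Dawley rats on day 7 after transection of the FF with a wire knife (denervated, n = 3) with untreated hippocampus (normal, n = 3). The study used rats of both sexes for the arrays, and no source used here states the sex behind each sample. Total RNA was labelled with Cy5 and hybridised to 1-colour RiboArray lncDETECT rat arrays. The study describes the rats as paired, but no source used here states which normal sample goes with which denervated sample, so the p-values below rest on the spread between these samples. Values are log2 normalized intensity, on which a difference of 1 is a doubling, and a difference is always denervated minus normal.

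The arrays were on a common scale, with medians over all probes between 10.17 and 10.19, and 15.99 was the highest value on each. Of 7 brain and fetal noncoding RNAs looked up by accession, 2 were found. Bc1, a neuronal RNA that acts on translation in dendrites, lay between 15.97 and 15.99 in all samples, at the top of the scale. H19, an imprinted RNA of fetal tissue and muscle, lay between 13.29 and 14.36. No mRNA values were used, so the cell types in the tissue were not checked further, and in such tissue a change in the number of cells of a type and a change in RNA per cell cannot be told apart. The quality sheet of the study gives every denervated sample a higher RNA integrity number than any normal sample, and the part of this in the results was not tested.

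Samples did not fall into their groups over the Ensembl lncRNAs. Pearson's r across these lncRNAs was highest between normal 1 and normal 3, at 0.94, and lowest between denervated 2 and normal 2, at 0.69. Denervated 3 resembled normal 2 (r = 0.88), and denervated 2 resembled normal 1 (r = 0.89) and normal 3 (r = 0.90), whereas normal 2 reached 0.74 with normal 1 and 0.76 with normal 3. The mean r was 0.81 within groups and 0.82 between groups. Denervated 3 and normal 2 were thus each closer to the other than to any further sample. Denervated 3 also resembled denervated 1 (r = 0.85), so it did not stand apart from its group as normal 2 did. The counts over the whole class at the thresholds and without overlap, and those by span, are also given without denervated 3 and normal 2. The other counts rest on all 6 samples.

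The likeness of denervated 3 and normal 2 was also seen lncRNA by lncRNA. The 2 highest of the 6 values were those of denervated 3 and normal 2 in 456 Ensembl lncRNAs (27.3%), against 1350 of the other probes (26.8%), and the next pair, denervated 1 and denervated 2, held them in 149 Ensembl lncRNAs (8.91%). The 2 lowest values were in these samples for 302 Ensembl lncRNAs (18.1%), against 1001 other probes (19.8%). Normal 1 and normal 3 held the 2 lowest values in 280 Ensembl lncRNAs (16.7%), against 611 other probes (12.1%).

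**Figure D1:**
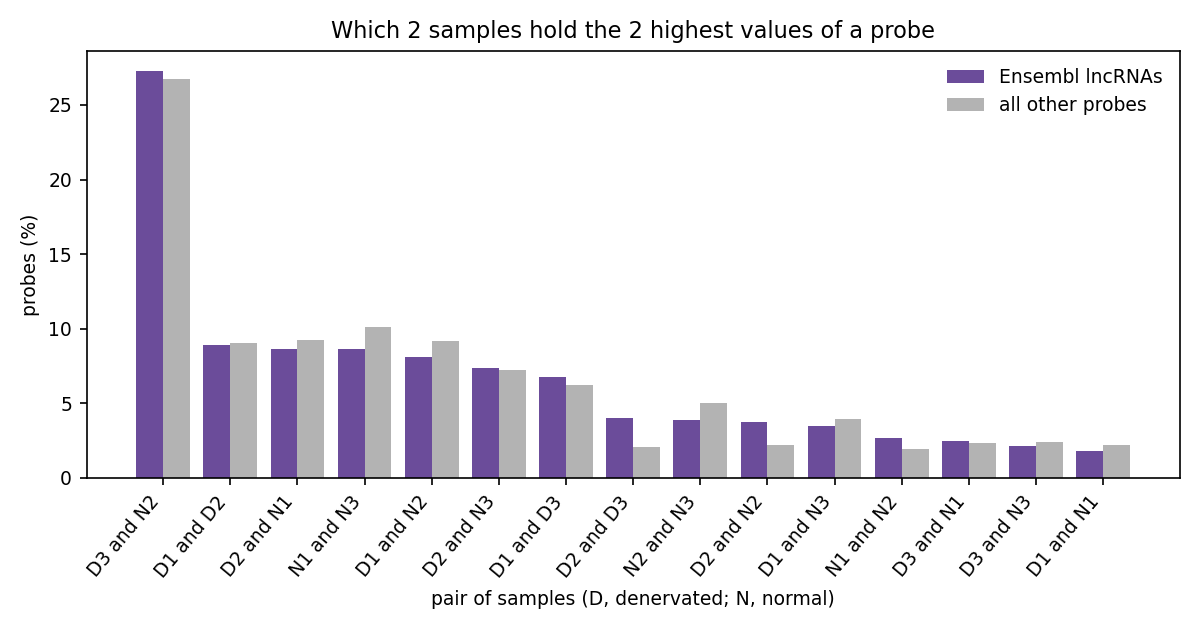
Percent of probes (vertical axis) whose 2 highest values lie in each pair of samples (horizontal axis), for the 1672 Ensembl lncRNAs and the other probes. The pair of denervated 3 and normal 2 holds the 2 highest values of 27.3% of the Ensembl lncRNAs and 26.8% of the other probes.

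The lncRNAs with the largest spread showed it in single values. Positions are given as the array's annotation prints them, and its genome build and the genes at these positions are not given in the sources used here. Among Ensembl lncRNAs with all 6 values at 5 or more, lncRNA3637 (chr13:108210335-108211117) had the largest within-group SD, 2.85, with 9.45, 11.42 and 5.52 in denervated samples and 10.15, 5.43 and 10.02 in normal samples. lncRNA3357 (chr3:100050674-100051473) read 10.50, 12.00 and 7.70 in denervated samples and 10.99, 6.08 and 11.20 in normal samples. In both, denervated 3 and normal 2 were the low samples. In lncRNA6500 (chr2:140910055-140910516) denervated 1 and normal 2 were the highest, with 13.25, 8.85 and 10.79 in denervated and 9.75, 12.60 and 8.72 in normal samples. lncRNA5042 (chrX:84378478-84378982) departed in a single sample, with 11.99, 6.41 and 12.12 in denervated samples against 11.60, 12.54 and 11.57 in normal samples. lncRNA217 (chr7:95426156-95426904) read 10.67, 11.01 and 8.70 in denervated and 12.23, 7.72 and 12.13 in normal samples, again lowest in denervated 3 and normal 2.

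Ensembl lncRNAs were brighter than the other classes of probe. The median over lncRNAs of the mean of 6 samples was 10.73, against 9.99 for 3356 mouse-matched probes, 9.90 for 1291 RefSeq probes with a predicted (XR) accession, 9.80 for 381 RefSeq probes with a curated (NR) accession and 10.16 over the whole series. Per sample the Ensembl median was 10.71, 10.76 and 10.79 in denervated samples and 10.77, 10.72 and 10.72 in normal samples. It exceeded every per-sample median of the other 3 classes, of which the highest was 10.05. The brightness of a probe depends on its sequence as well as on its RNA, so these medians describe probes and not amounts of RNA.

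The Ensembl class held fewer dim and more bright probes than the whole series. The middle of the class, from the 25th to the 75th percentile, ran from 9.42 to 11.77, against 8.84 to 11.43 over all probes. A mean under 6 was found for 89 Ensembl lncRNAs and a mean between 6 and 8 for 99, which are 5.32% and 5.92% of the class, against 6.83% and 8.43% of all probes. At the other end, 348 lncRNAs (20.8%) had a mean over 12, against 16.7% of all probes, and 26 had a mean over 14.

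The 5 brightest Ensembl lncRNAs differed in how steady they were. lncRNA1066, a 193-base transcript at chr16:68849188-68849380, read 15.19, 15.07 and 15.17 in denervated samples and 15.10, 15.30 and 15.10 in normal samples. It was also among the 5 lncRNAs with the smallest spread (SD 0.093). lncRNA1413 (chr14:65237053-65237658) averaged 15.02 ± 0.27 in denervated and 15.17 ± 0.24 in normal samples, and lncRNA4816 (chr4:219465345-219465772) averaged 15.09 ± 0.36 in denervated and 15.02 ± 0.31 in normal samples (SD, n = 3). lncRNA1674 (chr13:94450397-94451625) read 15.99, 14.19 and 15.63 in denervated samples and 14.14, 15.75 and 14.06 in normal samples. Its high samples were denervated 1, denervated 3 and normal 2. lncRNA4376 (chr4:149872503-149873230) was low in denervated 2 and normal 2 instead, with 15.60, 13.91 and 15.61 in denervated and 15.15, 13.83 and 15.58 in normal samples. These lncRNAs are near the top of the scale, where saturation would compress a difference.

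A value under 2, close to background, occurred in at least 1 sample for 103 Ensembl lncRNAs (6.16%), against 278 mouse-matched (8.28%), 119 XR (9.22%) and 40 NR probes (10.5%). The number of Ensembl values under 2 was 24, 16 and 54 in denervated samples (1.44%, 0.957% and 3.23%) and 44, 59 and 41 in normal samples (2.63%, 3.53% and 2.45%). Denervated 1 and 2 had the fewest, whereas denervated 3 lay within the range of the normal samples, so the groups overlapped. The same order was seen in the mouse-matched probes, with 1.25% to 4.68% in denervated and 2.32% to 4.71% in normal samples.

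Of the 103 lncRNAs, 18 fell under 2 in denervated samples only, 36 in normal samples only and 49 in both groups. All 3 normal samples were under 2 and all 3 denervated samples at 2 or more in 3 lncRNAs, and the opposite pattern was found in 0. These counts were not made over all probes, so they do not show a lean particular to the class. Over all probes, values under 2 numbered 117, 87 and 294 in denervated samples and 203, 321 and 166 in normal samples. With a limit of 5 in place of 2, 146 Ensembl lncRNAs (8.73%) had a dim value, against 11.1% of all probes, and 13 were under 5 in all 6 samples.

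**Figure D2:**
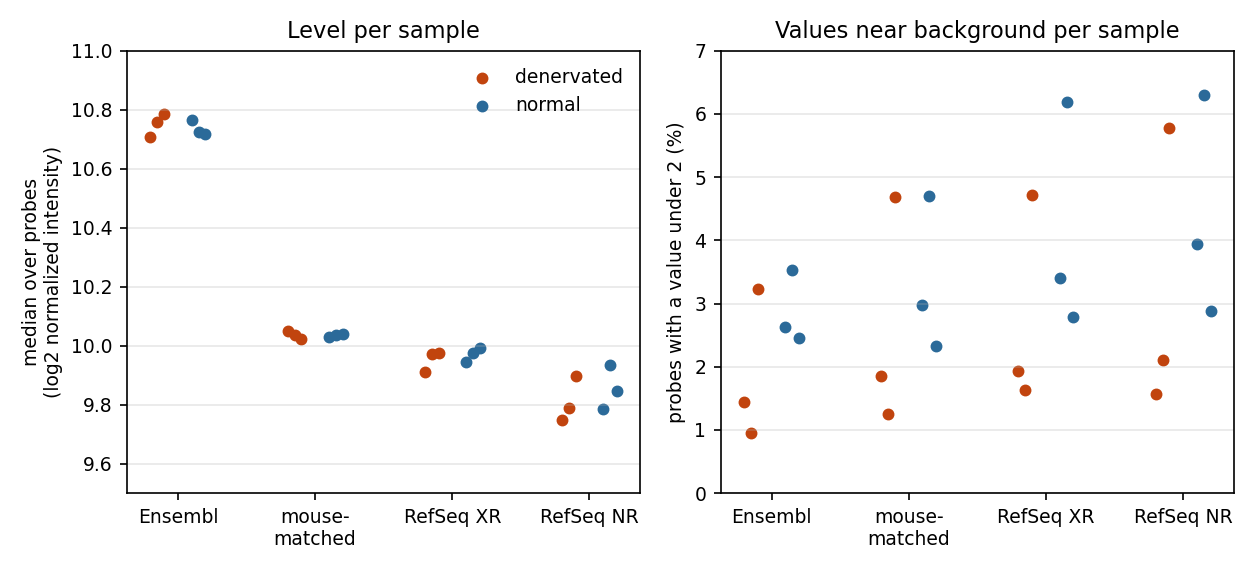
Median log2 normalized intensity over probes (left, vertical axis from 9.5) and percent of probes with a value under 2 (right) in each of the 3 denervated and 3 normal samples, by class of probe. The Ensembl medians, 10.71 to 10.79, lie above those of the other classes in all 6 samples, while the dim shares of the groups overlap in each class.

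The spread between replicates was much the same in each class. The median within-group SD, pooled over both groups, was 0.543 for Ensembl lncRNAs, 0.540 for mouse-matched, 0.577 for XR and 0.558 for NR probes. At equal brightness the Ensembl value was above that of all probes: 1.45 against 1.36 for means of 6 to 8, 0.614 against 0.574 for 8 to 10, 0.514 against 0.476 for 10 to 12 and 0.444 against 0.405 over 12. Under 6 the medians were 3.09 and 3.04. Within the class the SD thus fell with brightness, and in those under 8 the median SD exceeded the difference of 1 used as a threshold below. By group, the median SD of the class was 0.482 in denervated and 0.546 in normal samples. With denervated 3 and normal 2 left out, the pooled median was 0.375.

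The steadiest Ensembl lncRNAs had an SD under 0.1. lncRNA3076 (chr15:84302238-84302934) averaged 13.81 ± 0.069 in denervated and 13.83 ± 0.086 in normal samples (SD, n = 3). lncRNA980 (chr1:229809406-229810016) averaged 9.88 ± 0.11 and lncRNA595 (chr2:248486521-248488445) 13.90 ± 0.12 in denervated samples, against 9.82 ± 0.051 and 13.83 ± 0.046 in normal samples. lncRNA660, at chr7:15288822-15289202, was the exception in that its groups did not overlap. It read 9.80, 9.81 and 9.65 in denervated samples and 10.10, 10.03 and 10.21 in normal samples, a difference of -0.36 (SE 0.25) that passed neither limma's test nor the thresholds.

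The comparison of denervated with normal hippocampus asks which lncRNAs differ after the FF is cut. The normal hippocampus was untreated, so effects of the lost septal input and of the operation itself cannot be told apart. The methods of the study ask for an absolute log2 difference of more than 1 together with p below 0.05, for which the unadjusted p of limma over all probes was taken. At these, 19 Ensembl lncRNAs were higher after transection (1.14%, against 1.04% of all probes) and 4 were lower (0.239%, against 0.298% of all probes). The share over all probes includes the lncRNAs of the study's table, 11 of which the class leaves out. With these 11 put back, 29 of 1683 Ensembl probes were higher (1.72%). The other classes gave 25 higher (0.745%) and 16 lower (0.477%) mouse-matched probes, 11 higher (0.852%) and 0 lower XR probes, and 5 higher (1.31%) and 0 lower NR probes. Tabled lncRNAs were left out of the Ensembl class only.

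No Ensembl lncRNA passed an adjusted p of 0.05 in limma, where 0.0149% of all probes did. An unadjusted p under 0.05 was reached by 37 of them (2.21%, against 1.97% of all probes), 30 higher and 7 lower, and the methods' t-test gave 42, with 0 after adjustment. The thresholds therefore describe these samples and do not hold a false discovery rate.

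The counts depended on single samples. Without normal 2, 78 lncRNAs were higher (4.67%, against 3.65% of all probes) and 17 lower (1.02%, against 1.09%). Without denervated 3, 37 were higher (2.21%, against 1.98%) and 15 lower (0.897%, against 1.18%). Without denervated 2 the lower calls outnumbered the higher in the class and over all probes, with 14 higher (0.837%, against 0.864%) and 22 lower (1.32%, against 1.34%). Without denervated 1, 15 were higher (0.897%, against 0.581%) and 0 lower (against 0.328%). Without normal 1, 23 were higher (1.38%, against 1.10%) and 2 lower (0.120%, against 0.298%), and without normal 3, 13 were higher (0.778%, against 0.819%) and 1 lower (0.0598%, against 0.0893%). The class thus lay above all probes in its higher share without some samples and slightly below without others. The shares over all probes include the 11 tabled Ensembl probes that the class leaves out. Gaps as small as those without denervated 2 and without normal 3 therefore do not place the class below the other probes. With denervated 3 and normal 2 both left out, 68 were higher and 21 lower (4.07% and 1.26%, against 4.01% and 1.38% of all probes), and 15 of the 23 original calls were kept.

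Brightness divided the calls. All 6 values were at 5 or more in 1526 Ensembl lncRNAs, and in these 9 were higher (0.590%, against 0.687% of all such probes) and 3 lower (0.197%, against 0.235%). The share over all such probes includes 10 tabled Ensembl probes that the class leaves out, of which 9 were higher. With these put back, 18 of 1536 Ensembl probes were higher (1.17%). The higher share was 0.506% in mouse-matched, 0.531% in XR and 0.601% in NR probes. With values under 5 set to 5, the higher share of the class was 0.658%, against 0.923% of all probes, which again include the tabled probes. The other 10 higher calls and 1 lower call of the class had a value under 5, and all 11 of these had a value under 2.

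**Figure D3:**
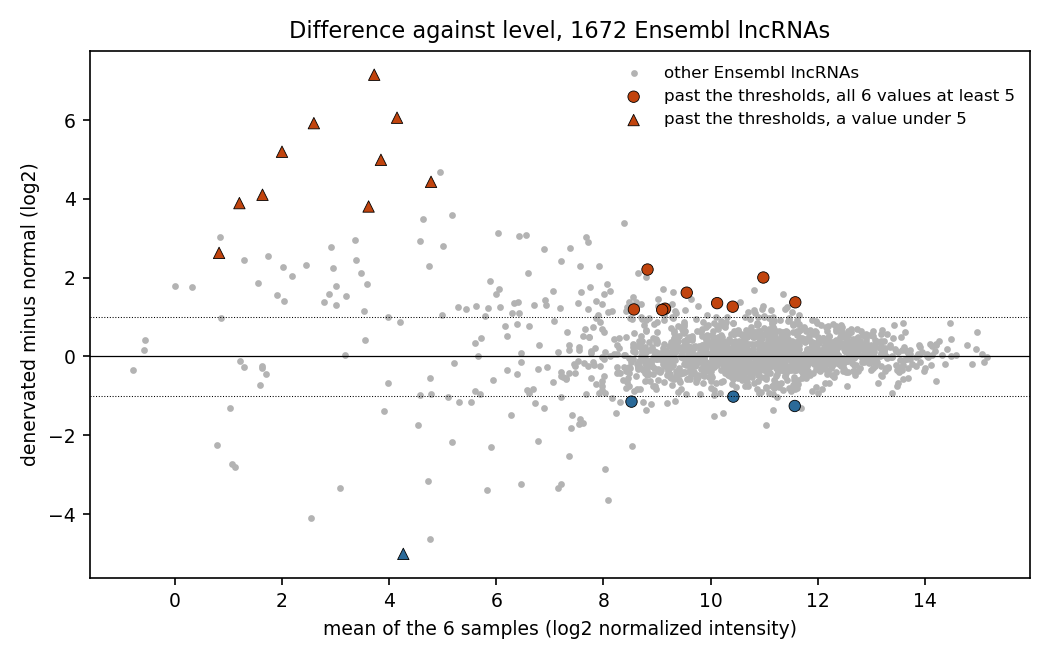
Difference, denervated minus normal (vertical axis, log2), against the mean of the 6 samples (horizontal axis, log2 normalized intensity) for the 1672 Ensembl lncRNAs. Coloured symbols mark the 19 higher (orange) and 4 lower (blue) lncRNAs past the thresholds, circles where all 6 values were at least 5, triangles where a value was under 5, and dotted lines mark a difference of 1 in either direction.

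Among the brighter calls, 7 lncRNAs were higher in every denervated sample than in any normal one. Any lncRNA without overlap has an exact two-sided permutation p of 0.1, the smallest that 3 samples against 3 allow. This p follows from how the 7 were picked and adds no evidence for them. The largest change was in lncRNA3413 (ENSRNOT00000047716), which spans 643 bases of the reverse strand at chr2:218232651-218233293. It read 10.93, 9.33 and 9.52 in denervated samples and 6.93, 9.18 and 7.04 in normal samples. Normal 2 came close to the lowest denervated value, while normal 1 and normal 3 lay more than 2 below it. The difference was 2.21 (SE 0.77), with an adjusted p of 1.00 in limma.

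lncRNA5135, the shortest of the Ensembl lncRNAs whose probe names 1 transcript, covers 75 bases of the forward strand at chr10:69740708-69740782. This span is under the minimum length that the study gives for lncRNAs, and what kind of RNA lncRNA5135 is was not tested. Its values were 11.90, 12.72 and 12.18 in denervated samples and 10.47, 10.37 and 11.83 in normal samples, a difference of 1.37 (SE 0.50). Here normal 3 was the normal sample close to the denervated ones. lncRNA6080, on the forward strand at chr1:156157016-156157489, read 10.84, 11.38 and 10.18 in denervated samples and 9.92, 9.80 and 8.60 in normal samples (difference 1.35, SE 0.51). lncRNA4311 spans 2484 bases of the reverse strand at chr10:24660002-24662485 and read 10.56, 10.89 and 11.68 in denervated samples against 10.30, 9.80 and 9.24 in normal samples (difference 1.26, SE 0.44). In both, the gap between the groups was under 0.3, and the samples within a group spread over more than 1.

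lncRNA1021, lncRNA2635 and lncRNA2746 lay lower on the scale and differed by 1.21, 1.19 and 1.18. lncRNA1021 (chr6:72374321-72374891) read 9.64, 10.11 and 9.51 in denervated samples and 8.98, 8.86 and 7.79 in normal samples. lncRNA2635 (chr8:25170002-25171177) read 9.68, 9.02 and 8.79 in denervated samples and 7.83, 8.63 and 7.45 in normal samples. lncRNA2746 (chr6:61299592-61300029) read 9.42, 10.26 and 9.38 in denervated samples and 8.96, 7.98 and 8.57 in normal samples. The normal sample nearest to the denervated ones was normal 1, normal 2 and normal 1 in turn.

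The other 2 brighter higher calls overlapped between groups and were named after their values were seen. lncRNA3024 (chr14:22752587-22753170) read 12.10, 12.76 and 11.10 in denervated samples and 9.61, 8.91 and 11.43 in normal samples (difference 2.00). lncRNA6518 (chr2:49920739-49921135) read 10.65, 11.14 and 9.30 in denervated samples and 9.05, 7.83 and 9.35 in normal samples (difference 1.62). In both, normal 3 lay above denervated 3.

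The 3 brighter lncRNAs that were lower after transection had no overlap. lncRNA5051 (ENSRNOT00000046989), 1000 bases of the forward strand at chr1:207898086-207899085, read 10.17, 11.31 and 11.34 in denervated samples and 12.55, 11.48 and 12.56 in normal samples. The difference was -1.26 (SE 0.49), with an adjusted p of 1.00 in limma, and normal 2 lay just above the highest denervated value. lncRNA2434 (ENSRNOT00000072290; chrX:7844121-7845269) read 7.92, 7.22 and 8.71 in denervated samples and 8.71, 9.48 and 9.10 in normal samples, a difference of -1.15 (SE 0.46). lncRNA5005 (chr19:38073112-38074368) read 9.24, 9.94 and 10.55 in denervated samples and 10.72, 10.84 and 11.23 in normal samples, a difference of -1.02 (SE 0.41). In lncRNA2434 and lncRNA5005 the highest denervated sample was denervated 3 and the lowest normal sample was normal 1. In lncRNA2434 these samples read 8.705 and 8.713, so its groups almost touched.

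The dim calls showed larger differences, and in each at least 1 value lay under 2, close to background. lncRNA6601 (ENSRNOT00000035284), 450 bases of the forward strand at chr5:113718098-113718547, had the lowest p of all Ensembl lncRNAs and the second lowest of the series. It read 6.09, 4.57 and 6.01 in denervated samples and -0.50, -0.40 and -0.20 in normal samples. All 3 denervated values were above 4 and all 3 normal values below 0. The difference was 5.92 (SE 0.48), with an adjusted p of 0.0625 in limma that misses the threshold of 0.05. With every value under 5 set to 5 it was 0.70 and no longer passed the thresholds.

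lncRNA2263, on the reverse strand at chr2:278151909-278152278, read 6.89, 10.10 and 4.91 in denervated samples and -0.25, -0.36 and 1.04 in normal samples. lncRNA4605 (chrX:154231201-154234031) read 5.97, 7.38 and 8.19 in denervated samples and -0.20, -0.43 and 3.98 in normal samples. With the floor of 5 the difference of lncRNA2263 was 2.33, against 7.15 without it, and no longer passed the thresholds, whereas that of lncRNA4605 was 2.18, against 6.06 without it, and did. lncRNA1063 (chr7:6835554-6836485) read 2.96, 2.14 and 8.71 in denervated samples and -0.98, -0.29 and -0.51 in normal samples. Denervated 3 lay far above the other denervated samples, and the difference of 5.20 was 1.24 with the floor and no longer passed. lncRNA2696 (chr19:8618237-8618483) read 8.24, 6.78 and 5.98 in denervated samples and 5.94, -0.33 and 2.09 in normal samples. Normal 1 almost reached denervated 3, and the difference was 4.43, or 1.69 with the floor, where it still passed.

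**Figure D4:**
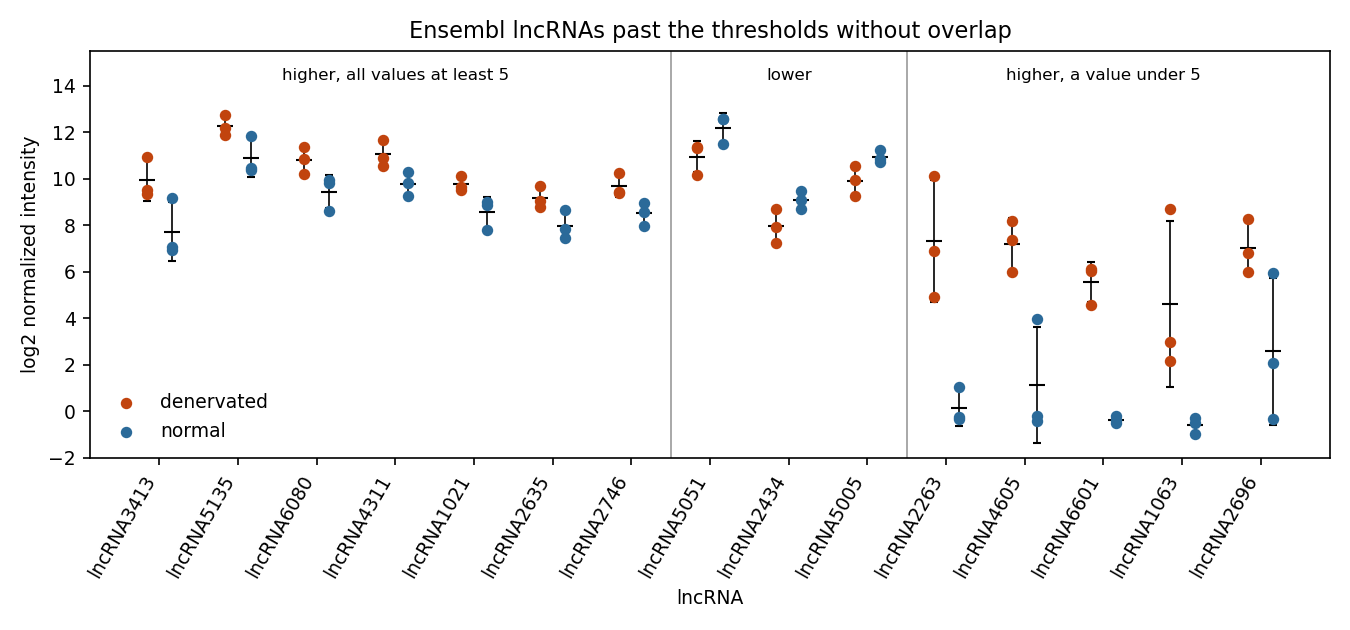
Log2 normalized intensity (vertical axis) of the named Ensembl lncRNAs past the thresholds without overlap (horizontal axis), as points for the 3 denervated and the 3 normal samples, with the mean as a dash and bars of 1 SD. In each lncRNA of the left and right panels all denervated points lie above all normal points, and in the middle panel all lie below, with the widest gaps where normal values are near 0.

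The remaining dim calls were also named after their values were seen. lncRNA5727 (chr1:127744606-127745284) and lncRNA5402 (chr7:5893584-5894521) did not overlap, with 5.23, 4.69 and 1.16 in lncRNA5727 and 5.27, 4.63 and -0.43 in lncRNA5402 in denervated samples, against normal values that were all below 0. lncRNA5886 (chr14:53303317-53303787) read 3.64, 3.13 and -0.33 in denervated samples and -0.37, -0.82 and -0.27 in normal samples. With the floor of 5 these 3 lncRNAs differed by 0.08, 0.09 and 0.00. lncRNA1899 (chr1:95873009-95873867) and lncRNA1474 (chr1:18111938-18112574) overlapped between groups and differed by 4.99 and 3.81, or 1.59 and 0.81 with the floor, where neither passed. The 1 dim lncRNA that was lower, lncRNA1991 (chrX:44049958-44050594), read -0.25, 5.76 and -0.23 in denervated samples and 8.17, 4.08 and 8.07 in normal samples. Its low values were those of denervated 1 and denervated 3, denervated 2 lay above normal 2, and with the floor it no longer passed.

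The shifts of the class were mostly small. The difference was above 0 in 939 Ensembl lncRNAs (56.2%), against 52.0% of all probes, and its median was 0.05, against 0.02 in mouse-matched, -0.01 in XR and -0.02 in NR probes. After quantile normalization the median was 0.02 in the class and -0.01 over all probes. Leaving out 1 sample at a time moved the median of the class between 0.03 and 0.13.

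Every denervated value exceeded every normal value in 74 Ensembl lncRNAs (4.43%, against 3.37% of all probes) and fell below every normal value in 39 (2.33%, against 2.53% of all probes). The higher share was 2.89% in mouse-matched, 2.63% in XR and 2.62% in NR probes, and the lower share was 2.56%, 2.56% and 3.15% in these classes. Most of these shifts were under 1 on the log2 scale, 54 of the 74 and 32 of the 39, with median differences of 0.82 and -0.64. Among the 1526 lncRNAs with all values at 5 or more, 64 were higher without overlap (4.19%, against 3.17% of all such probes) and 36 lower (2.36%, against 2.56%).

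The higher share of the Ensembl class exceeded that of all probes whichever sample was left out, though the sets share samples. It was 19.1% against 14.98% without normal 2, 11.4% against 10.8% without denervated 3, and 26.7% against 23.2% without both. After quantile normalization it was 3.83% against 3.04%. No test of the difference between classes was made, since probes of a class are not replicates.

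The annotated span of a transcript, from its start to its end in the genome, was set against these shifts in the 1618 Ensembl lncRNAs whose probe names 1 transcript. The median span was 682 bases, with a range of 75 to 6236. In 4 groups of nearly equal size, from short to long, 22, 21, 16 and 15 lncRNAs were higher without overlap. These are 5.41%, 5.22%, 3.93% and 3.73%, against 3.37% of all probes. Those lower without overlap numbered 4, 3, 12 and 18, or 0.983%, 0.746%, 2.95% and 4.48%, against 2.53% of all probes. Short lncRNAs were thus mostly higher where the groups separated, and in the longest group 18 were lower and 15 higher. That order turned without denervated 3 (39 lower and 41 higher) and without normal 2 (58 lower and 59 higher). The longest group held the largest lower share with any 1 sample left out except normal 1. There it was 6.97%, against 7.13% in the group before it and 6.24% of all probes. With denervated 3 and normal 2 both left out, fewer samples made overlap rarer. The lower shares from short to long were then 13.3%, 13.7%, 14.3% and 20.9%, against 18.8% of all probes. The higher shares were 28.7%, 28.4%, 28.7% and 22.6%, against 23.2% of all probes.

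The median difference of the 4 span groups was 0.07, 0.12, 0.04 and -0.03. Level did not follow span, with medians of 10.88, 10.57, 10.54 and 10.88, and neither did the spread, with median SDs of 0.522, 0.544, 0.576 and 0.528. The RNA integrity numbers, as given above, also separate the sample groups, and their part in this pattern was not tested.

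**Figure D5:**
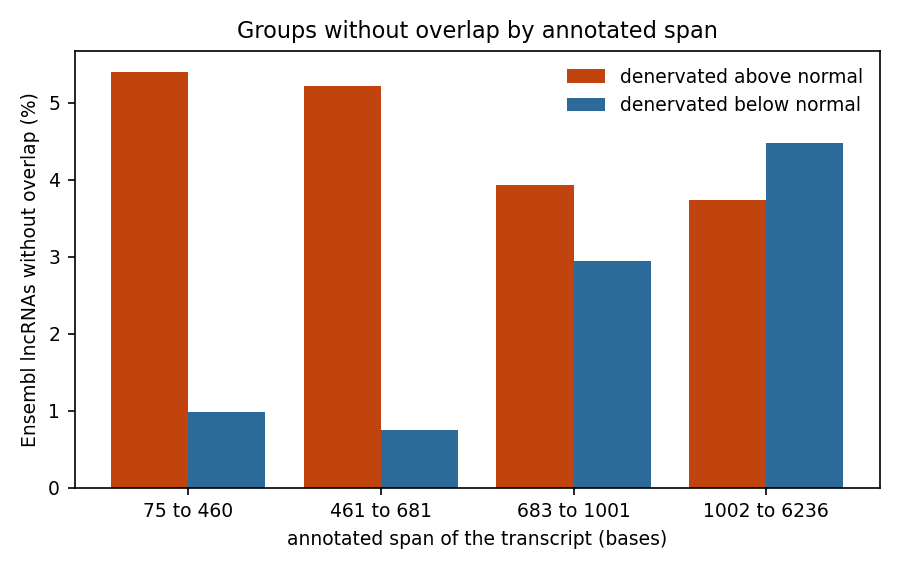
Percent of Ensembl lncRNAs (vertical axis) whose 3 denervated values all lie above or all below the 3 normal values, in 4 groups by annotated span in bases (horizontal axis), 1618 lncRNAs in all. The share below normal is 0.983% and 0.746% in the shorter groups and 2.95% and 4.48% in the longer ones, against 2.53% of all probes.

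By strand, 837 lncRNAs lay on the forward and 781 on the reverse strand. On the forward strand 45 were higher and 23 lower without overlap (5.38% and 2.75%), and on the reverse strand 29 were higher and 14 lower (3.71% and 1.79%), so that both directions were less frequent there. Over all probes, 3.37% were higher and 2.53% lower without overlap. The 54 probes that name several transcripts had a median level of 10.14, against 10.74 for those with 1 transcript. They held a value under 2 more often (9.26% against 6.06%), and of them 0 were higher and 2 lower without overlap.

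The lncRNAs were spread over 21 chromosomes, with 26 to 199 on each, and 9 with 1 transcript lay on unplaced scaffolds. Median level by chromosome ran from 10.08 on chromosome 19 to 11.53 on chromosome 13. Chromosome 19 also held the largest share higher without overlap, 6 of 38 lncRNAs (15.8%, against 3.37% of all probes), with 3 lower (7.89%, against 2.53%). Chromosome X had 7 higher and 7 lower of 101 (6.93% each), whereas chromosomes 9 and 11 had 0 higher of 66 and 46. These counts are small, and the chromosomes were picked out after their values were seen.

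Few Ensembl lncRNAs lay close together. With a limit of 10 kb between neighbours, 51 lncRNAs formed 25 runs, the longest of 3 members, and gave 26 neighbour pairs. Over the 6 samples the median Pearson's r of the pairs was 0.18, with a range of -0.92 to 0.97, against 0.03 over all pairs of Ensembl lncRNAs. The median was 0.22 for 16 pairs on the same strand and 0.01 for 10 pairs on opposite strands, and the differences of 14 of the 26 pairs had the same sign. Neighbours share the arrays and the likeness between samples described above, so r over 6 samples carries that structure.

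Single runs show the range. On chromosome 15, lncRNA3779 (14654026 to 14657301, forward), lncRNA4982 (14662549 to 14665829, reverse) and lncRNA5620 (14675501 to 14676132, forward) make up the run of 3. lncRNA3779 read 11.96, 11.02 and 12.13 in denervated and 11.35, 11.92 and 11.21 in normal samples. lncRNA4982 read 10.04, 10.85 and 10.64 in denervated and 11.42, 8.98 and 11.23 in normal samples. It ran against lncRNA3779 (r = -0.63) and with lncRNA5620 (r = 0.71), which averaged 10.54 ± 1.20 in denervated and 10.79 ± 0.92 in normal samples (SD, n = 3) and was highest in denervated 2, normal 3 and normal 1.

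The 1 pair whose spans overlap lies on chromosome 18. lncRNA1745 covers 56194141 to 56194647 of the forward strand and read 11.60, 11.74 and 10.81 in denervated and 11.53, 10.85 and 11.72 in normal samples. lncRNA4744 covers 56194145 to 56194506 of the reverse strand, entirely within it, and read 7.80, 7.29 and 9.26 in denervated and 8.29, 9.39 and 8.60 in normal samples. The values of the pair ran in opposite directions (r = -0.85), with denervated 3 and normal 2 lowest in lncRNA1745 and highest in lncRNA4744. Whether the labelling kept strand is not given in the sources used here, so signal of the 2 strands may not be separate.

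On chromosome X, lncRNA3900 (119686875 to 119687398) and lncRNA4072 (119687431 to 119687918) lie 32 bases apart on the reverse strand. lncRNA3900 read 9.86, 8.95 and 8.67 in denervated and 7.63, 9.70 and 7.72 in normal samples, and lncRNA4072 read 11.17, 10.45 and 11.63 in denervated and 11.27, 11.84 and 11.20 in normal samples. The pair showed little likeness (r = 0.14). The pair with the highest r, lncRNA754 and lncRNA1409 (r = 0.97), and the pair with the lowest, lncRNA2848 and lncRNA6365 (r = -0.92), lie 8853 and 8514 bases apart, each on 1 strand. lncRNA1021, 1 of the 7 brighter higher lncRNAs, has lncRNA692 7968 bases downstream on the opposite strand, which differed by 0.85 in the same direction (r = 0.94).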

How the data were processed

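Rat hippocampal RNA of 3 denervated and 3 normal samples was hybridised to 1-colour arrays, and groups were taken from the labels. The authors deposited log2 normalized intensity after scaling each array by the 50% method, taking the median over repeated spots and averaging arrays of the same sample. Background correction, a filter on dim probes and the genome build of the printed coordinates are not given in the sources used here. The deposited lists of changed lncRNAs hold the authors' log2 ratios, linear ratios and p-values and were not used, and 1 probe is not reported here.

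The deposited values were taken unchanged. A model without a block was fitted over 6716 probes by lmFit and eBayes of limma (version 3.58.1, R version 4.3.3), with Benjamini-Hochberg adjustment over all probes. Exact permutation tests took single lncRNAs. The members, lists and named lncRNAs were chosen with earlier results of these data known. The rule named up to 10 lncRNAs per direction past the thresholds without overlap and with all values at 5 or more, up to 5 with a value under 5, the 5 brightest, the 5 with the largest and the 5 with the smallest SD, the lowest p, and 3 runs of neighbours. Runs of equal length were ranked by the gap between neighbours, which was decided after the data were seen. The reference gene table paired no member with a gene symbol, and the table of brain noncoding RNAs held 7 names. Other normalizations, a floor, a filter, a trend, a replicate block, a Student t-test and fewer samples were tried. The rank product test of the methods was not run. The limma step was tested on simulated data. The number of arrays limits the precision. Figures were drawn with matplotlib 3.10.9.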

Additional observations from a re-analysis of the deposited data

How the results depend on the processing

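At the thresholds, 19 Ensembl lncRNAs were higher and 4 lower. The higher count was 11 with values under 5 set to 5 (0.658%, against 0.923% of all probes). It was 7 of 1049 among the upper 50% of probes by mean (0.667%, against 0.774%). A Student t-test gave 7 (0.419%, against 0.551%). The count was 29 of 1683 with the 11 tabled probes put back (1.72%), and between 13 and 78 with 1 sample left out. The shares over all probes include tabled probes that the class leaves out. The lower count was 7 after quantile normalization, which gave a split of 17 higher to 7 lower (0.419% lower, against 0.506%). It was 0 with the Student t-test (against 0.134%), and between 0 and 22 with 1 sample left out. The sample number as a replicate block gave 15 higher (0.897%, against 0.759%), 0 lower (against 0.164%) and 0 at an adjusted p under 0.05. Correlations of same-numbered deviations from the group mean were -0.06, -0.56 and -0.42. Deviations within a group of 3 are not independent of each other, so these values cannot show whether the numbers pair the rats. The adjusted count, 0, was between 0 and 3 with 1 sample left out. With denervated 3 and normal 2 both left out, which was chosen after seeing the data, it was 1. The thresholds then gave 68 higher and 21 lower. Without overlap, 447 were then higher and 262 lower (26.7% and 15.7%, against 23.2% and 18.8% of all probes). The share with a value under 2 was 4.01%, the median SD 0.375 and the median difference 0.0894.

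Counts without overlap, 74 higher and 39 lower, were 47 and 24 among the upper 50% of probes (4.48% and 2.29%, against 3.63% and 2.44% of all such probes). With 1 sample left out they were between 110 and 319 higher and 65 and 167 lower. The share with a dim value was 8.73% at a limit of 5, and between 5.08% and 5.98% with 1 sample left out. The median SD was 0.487 among the upper 50% of probes and between 0.456 and 0.575 with 1 sample left out, the median difference between 0.0305 and 0.129, and the median level between 10.70 and 10.74. Of the 23 calls, 23 were kept with centred medians, 20 after quantile normalization, 18 with an intensity trend, 14 with the floor, 9 with the block and 7 with the t-test. The causes were not tested. Values under 5 lie near background, and those near 16 near the top of the scale.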
